A study of Mus musculus with 34 samples.

Results

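The arrays described here are the 5 of 34 heart sections on which atrial transcripts were scarce. Each array compares RNA of 1 mouse heart section, labelled with Cy5, with a common mouse reference RNA, labelled with Cy3. The deposited value of a gene is a log2 ratio of the heart signal over the reference signal. An atrial score was taken for each array as the mean, over Myl7, Myl4, Sln, Bmp10, Dkk3, Gja5 and Mybphl, of the gene's log2 ratio minus its median over the 34 arrays. Arrays with a score under -1.5 were called low, which gave 5 low arrays and left 29 others. The 5 arrays were thus chosen by measured values, the log2 ratios of these 7 genes, and their differences from the 29 others are given as a description, without a test.

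The study asked how the heart responds to carbon black nanoparticles placed in the airways. Female C57BL/6 mice, obtained at an age of 5 to 6 weeks, received 162 µg of Printex 90 carbon black or vehicle alone by intratracheal instillation of 40 µl. The vehicle for both arms was water with 0.9% NaCl and 10% cell-free lavage fluid from mice of the strain. Hearts were taken on day 1, 3 or 28 after instillation. Vehicle controls numbered 6 mice on each day, and carbon black mice numbered 6, 5 and 5 on days 1, 3 and 28. The series title describes the tissue as a random section of heart that holds both ventricles, so the share of each heart chamber in a section was not fixed by design.

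The atria and the ventricles of the mouse heart build their contractile apparatus from different genes. Atrial myocytes use the light chains Myl7 and Myl4 and the calcium pump inhibitor sarcolipin (Sln), where ventricular myocytes use Myl2, Myl3 and phospholamban (Pln). Atrial myocytes also secrete the natriuretic peptide encoded by Nppa, make the growth factor BMP10 and couple through the gap junction protein connexin 40 (Gja5). In bulk tissue, fewer cells of a type and less RNA per cell cannot be told apart.

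Low arrays occurred in 5 of the 6 groups. Their scores were -4.67 for control day 3 replicate 4, -4.66 for control day 1 replicate 2, -4.45 for control day 28 replicate 2, -4.27 for carbon black day 1 replicate 6 and -2.53 for carbon black day 3 replicate 2. The 29 other arrays ran from -0.77, in control day 3 replicate 6, to 0.83, with a median of 0.10. No array lay between -2.53 and -0.77, the values just inside and just outside the threshold. The low arrays were 3 of 18 controls and 2 of 16 carbon black sections, a difference that did not pass Fisher's exact test (two-sided p = 1). Carbon black day 28 had no low array. The low arrays lay on 4 of the 14 slides, with 2 of them on slide 4 and none among the 10 arrays at slide position 4.

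The promoters of the marker genes are shown because the 7 genes were chosen as one programme that moves together across these sections. RefSeq start sites on GRCm38.p6 gave a promoter for Bmp10, Gja5, Mybphl, Myl4 and Myl7, and the 250 bases before each start were searched on both strands for a T-box half-site (AGGTGT), a nuclear receptor half-site (AGGTCA) and a GATA site (AGATAA). No marker promoter held either of the first motifs, which occur in 11.8% and 14% of 32851 mouse promoters of that length. The GATA site occurred in 2 of the 5 markers, Bmp10 and Mybphl, and in 9.99% of all promoters. A match describes letters in a window, not a bound site. The first line gives Bmp10 (chr6:87428744-87428993, plus strand), the next Mybphl (chr3:108364661-108364910, plus strand) and the last Myl7 (chr11:5898783-5899032, minus strand), each 5′ to 3′ and ending at the base before the start site, with GATA sites in capitals.
Bmp10: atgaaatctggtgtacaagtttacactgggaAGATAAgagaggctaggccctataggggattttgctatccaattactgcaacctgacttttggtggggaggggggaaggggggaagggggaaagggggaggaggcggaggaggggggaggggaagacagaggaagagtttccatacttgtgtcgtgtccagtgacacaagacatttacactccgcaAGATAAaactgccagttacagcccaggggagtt
Mybphl: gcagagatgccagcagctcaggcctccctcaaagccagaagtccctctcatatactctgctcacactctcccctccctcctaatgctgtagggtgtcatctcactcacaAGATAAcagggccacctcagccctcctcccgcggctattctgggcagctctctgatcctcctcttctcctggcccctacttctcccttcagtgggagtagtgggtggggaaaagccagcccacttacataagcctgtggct
Myl7: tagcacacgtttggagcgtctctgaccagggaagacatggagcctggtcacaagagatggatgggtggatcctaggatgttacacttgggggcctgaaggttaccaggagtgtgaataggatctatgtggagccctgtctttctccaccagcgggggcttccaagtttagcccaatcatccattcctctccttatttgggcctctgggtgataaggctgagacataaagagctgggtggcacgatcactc

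The contractile light chains gave the first view of the 5 sections. Myl4, the atrial essential light chain, had log2 ratios of -0.27, -0.47, -0.42, -0.11 and 2.11 on the low arrays, listed here and below in the order of score from control day 3 replicate 4 to carbon black day 3 replicate 2. The 29 others ran from 3.95 through a median of 4.40 to 5.12, so the ranges lay apart. Myl7, the atrial regulatory light chain, read 1.14, 1.96, 2.86, 3.47 and 5.47, against 4.72, 5.70 and 7.33 for the lowest, median and highest of the others. The fifth low array therefore lay inside the range of the others for Myl7, with 7 of the 29 below it. Sarcolipin, the atrial inhibitor of the calcium pump, repeated this split with the probe used. It read 0.17, 0.10, 0.27 and 0.62 on the first 4 low arrays and 5.44 on carbon black day 3 replicate 2. The others ran from 5.30 to 6.94. A second Sln probe showed no split, at -0.02, -0.13, 0.05, -0.05 and -0.002 against 1.03, 2.61 and 3.89. That probe was well above background on all 29 others and on no low array.

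With the probes used, the remaining markers separated all 5 sections from the others. Bmp10, an atrial growth factor of the BMP family, read -0.12, -0.07, 0.04, 0.02 and -0.15 against 0.41, 4.11 and 5.08 for the lowest, median and highest of the others. Bmp10 was not well above background on any low array and was well above it on all 29 others, so its difference is a bound of at least 13.9-fold. Dkk3, a secreted protein related to the Wnt inhibitor Dickkopf, read -0.27, -0.35, -0.47, -0.53 and 0.77 against 4.02, 5.14 and 5.87. Gja5, which joins atrial and conduction cells, read 1.69, 1.51, 1.64, 1.87 and 2.96 against 4.16, 5.63 and 6.45. A second Gja5 probe read 0.51, 0.51, 0.38, 0.23 and 0.47 against 0.25, 0.92 and 1.59, a difference of -0.54 with overlapping ranges. Mybphl, a myosin binding protein of atrial muscle, read 0.11, -0.18, 0.05, -0.09 and 0.83 against 1.97, 5.07 and 6.17. For Bmp10 and Mybphl 1 of the other arrays was far below its neighbours: Bmp10 read 0.41 on carbon black day 3 replicate 3, with the next at 2.50, and Mybphl read 1.97 on carbon black day 28 replicate 1, with the next at 4.41.

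**Figure D1:**
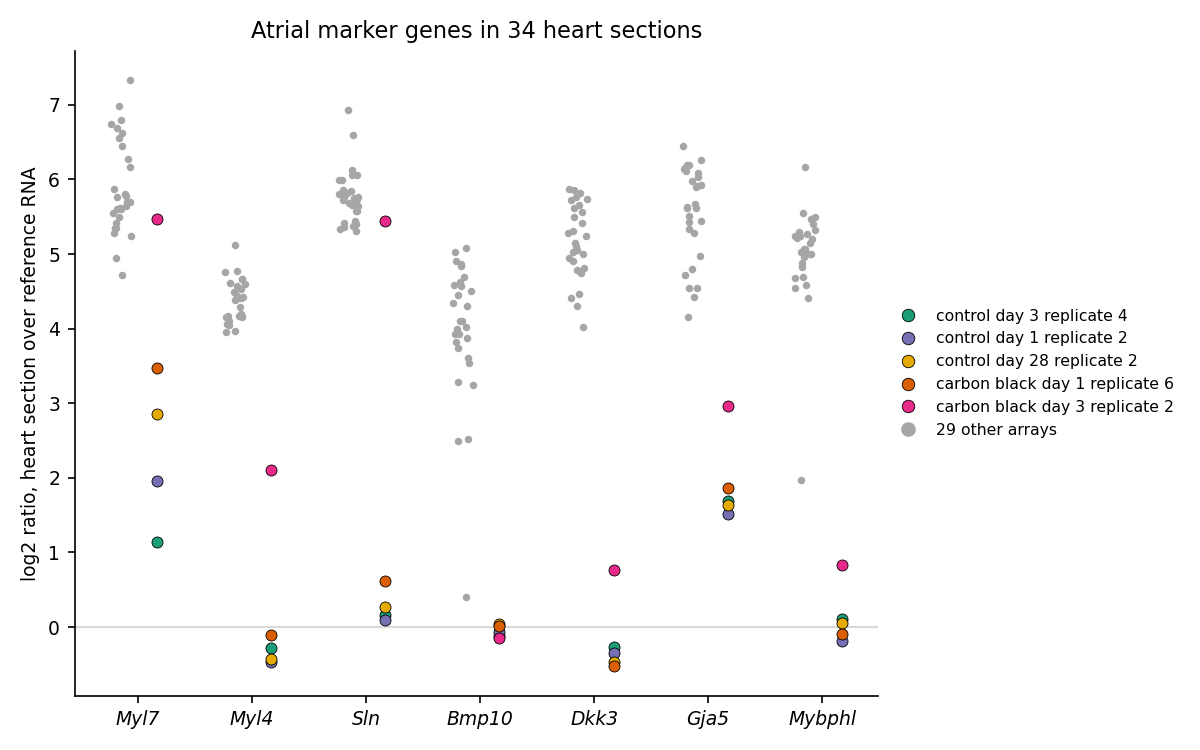
Deposited log2 ratio (vertical axis) of the 7 genes of the atrial score on 34 arrays, with the 29 other arrays in grey and the 5 low arrays in colour. The first 4 low arrays sit near 0 for Myl4, Sln, Bmp10, Dkk3 and Mybphl, while carbon black day 3 replicate 2 reaches 5.47 for Myl7 and 5.44 for Sln.

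Signal of some of the 7 markers remained on the low arrays. Of the 7 markers, 4 were well above background in the Cy5 channel on each of the first 3 low arrays, 5 on carbon black day 1 replicate 6 and 6 on carbon black day 3 replicate 2. Myl7, Myl4 and Gja5 were above it on all 5 low arrays, Sln on 4, Dkk3 on 3, Mybphl on 1 and Bmp10 on 0. Carbon black day 3 replicate 2 was intermediate in log2 ratio, with Myl7 and Sln near the other sections and Bmp10 at background. In Cy5 no low array passed 5573.5 units for Myl7 or 2310 units for Sln. The lowest of the others read 74561 and 71877.5 units. Signal above background does not settle whether a section held atrial tissue, and this was not tested. The arrays are therefore called low-score arrays rather than arrays without atria.

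The reference channel moved with the heart channel at the spots of abundant heart transcripts, which limits what a log2 ratio can show. The reference RNA was the same on every array, but at Myl7 its Cy3 signal was 59.5 to 165.5 scanner units on the low arrays and 2200.5 to 8407 on the others. The Cy5 signal at Myl7 was 174 to 5573.5 units on the low arrays and 74561 to 467073 on the others. Measured in the Cy5 channel alone, scaled between arrays, the adjusted difference of Myl7 was -8.53 ± 0.42 on the log2 scale, against -2.88 ± 0.37 for the ratio (each ± SE). Over the 19784 genes beside the markers, the Cy3 signal was at least 2-fold lower on the low arrays for 64 and at least 2-fold higher for 44, and all 64 were also at least 2-fold lower in Cy5. Why the channels moved together was not tested.

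Nppa, the atrial natriuretic peptide gene, shows how far the 2 readings can part. Its log2 ratio was 4.45, 4.27, 4.60, 4.61 and 4.80 on the low arrays and ran from 3.84 through 4.50 to 5.47 on the others, an adjusted difference of 0.02 ± 0.14 (SE). Its Cy5 signal was 4612.3 to 36933.5 units on the low arrays and 138899 to 539448 units on the others, and these ranges did not overlap. Its Cy3 signal was 215 to 2487 units on the low arrays against 8185 to 25938 units on the others. In Cy5 alone Nppa differed by -4.12 ± 0.28 on the log2 scale, and with normexp background correction the ratio gave -0.52. A second Nppa probe, well above background on all arrays, read 4.06, 4.27, 4.93, 4.56 and 3.76 against 3.93, 5.11 and 6.35, a difference of -0.77. The low arrays were thus low in Nppa signal in the heart channel, and the ratio differed by 0.02 or -0.77 with the probe.

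Myl2, the ventricular regulatory light chain, gave the reverse picture. Its log2 ratio was 3.97, 4.98, 4.61, 4.87 and 4.58 on the low arrays and 1.61, 4.97 and 5.82 at the lowest, median and highest of the others, an adjusted difference of -0.09 ± 0.42. In Cy5 its signal was 101118 to 236028 units on the low arrays, while on the others it ran from 198.5 through a median of 43847.5 to 268826, with 23 of the 29 below every low array. The lowest Myl2 signals among the others were 198.5 in control day 3 replicate 5, 364.5 in carbon black day 1 replicate 4 and 510 in control day 28 replicate 6. The local background of the arrays was 80 to 88 units, so these 3 sections, of a series described as holding both ventricles, carried little of a defining ventricular transcript. Myl3, the ventricular essential light chain, did the same in Cy5, at 75366.5 to 169344 units on the low arrays and 2243 to 273847 on the others, with a ratio difference of 0.13 ± 0.26. A second Myl3 probe, also well above background throughout, read 4.95, 4.41, 4.76, 4.91 and 4.90 against 0.44, 4.00 and 5.57, a difference of 1.32. The sections that the low arrays are compared with therefore varied in ventricular signal as well as holding atrial signal.

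**Figure D2:**
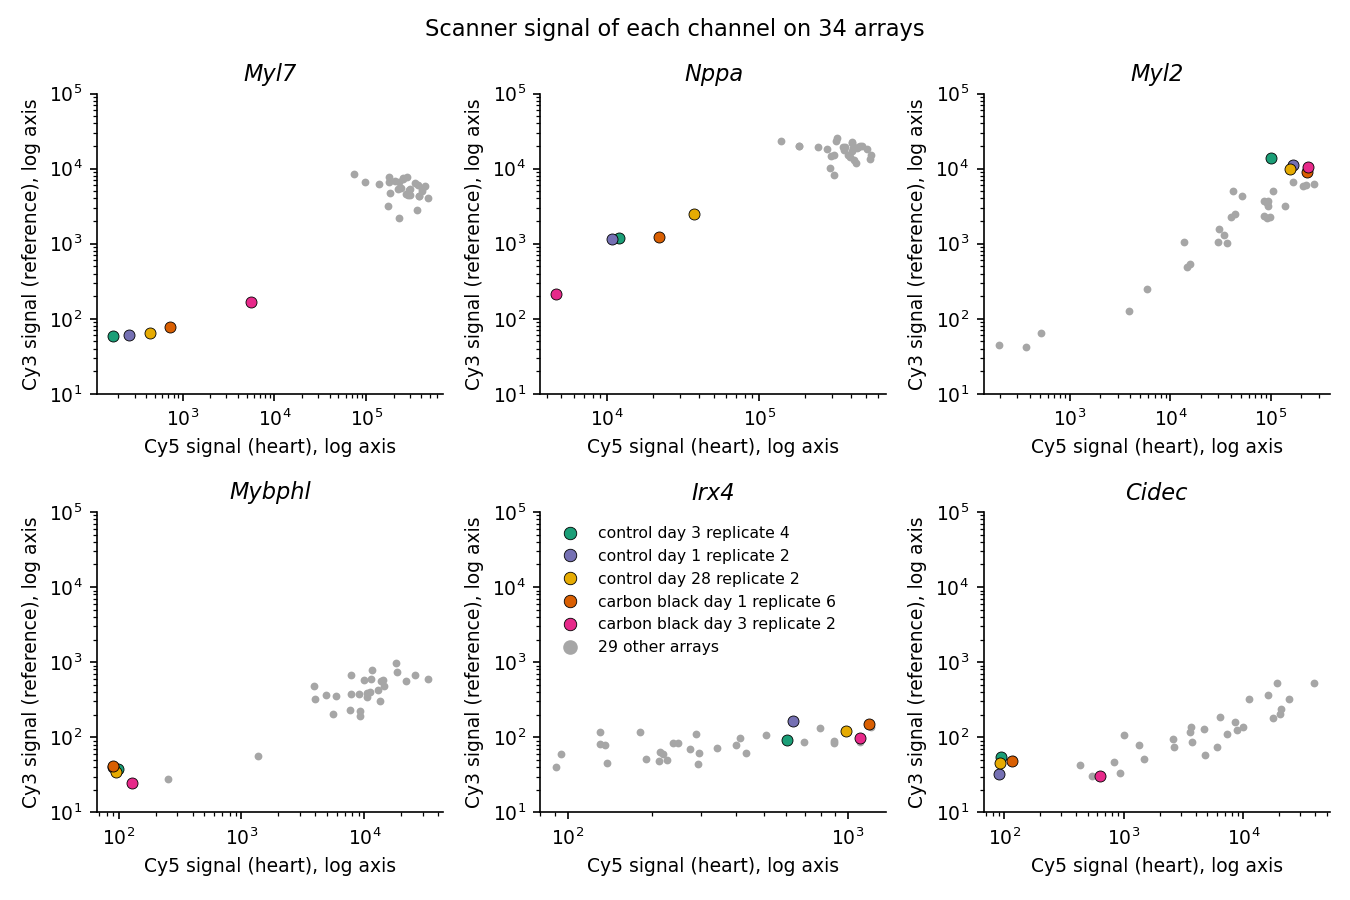
Cy3 reference signal (vertical, log axis, scanner units) against Cy5 heart signal (horizontal, log axis, scanner units) for 6 genes on 34 arrays, low arrays in colour. Cy3 follows Cy5 for Myl7, Nppa, Myl2, Mybphl and Cidec; for Myl2 the low arrays lie above most others on both axes, and 3 of the others lie at 198.5 to 510 units of Cy5.

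Across the 19784 genes beside the 7 markers, 534 were at least 2-fold lower on the low arrays (2.7%) and 147 at least 2-fold higher (0.743%), as fitted differences with the 6 groups as a covariate. The median difference over all genes was 0.02. Genes whose values on the 5 low arrays lay wholly below the other 29 numbered 297 (1.5%), and those wholly above numbered 110 (0.556%). The lower genes included 401 with a gene symbol and the higher genes 111.

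The 5 sections lay on the same side of the others for nearly all of these genes, which were chosen on their mean. Of the 534 lower genes, 533, 534, 534, 534 and 525 lay below the mean of their group's other arrays on each of the low arrays in turn. Of the 147 higher genes, 145, 147, 146, 147 and 144 lay above it. The median of the lower genes was -1.47, -1.54, -1.58, -1.33 and -1.28 on the 5 arrays. Choosing the genes without the array described removes its own part in the choice. Without carbon black day 3 replicate 2 the fit gave 574 lower and 159 higher genes, and on that array 544 of the 574 lay below and 156 of the 159 above the mean of their group's other arrays, with medians of -1.22 and 1.08. For the other 4 low arrays treated likewise, 533 of 538, 505 of 506, 513 of 514 and 554 of 555 lay below, with medians of -1.40, -1.54, -1.58 and -1.30. Over all genes, 47.2% to 49.4% lay below on these 5 arrays. Carbon black day 3 replicate 2 thus shared most of the lower genes, although its log2 ratios of Myl7 and Sln were close to the rest.

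Among genes with a symbol, the largest difference after the markers was in Fgf12, an intracellular partner of voltage-gated sodium channels. Fgf12 read 0.05, -0.01, 0.09, 0.04 and 0.32 on the low arrays and 4.45, 5.72 and 7.28 at the lowest, median and highest of the others. It was not well above background on any low array, so the difference is at least 38.3-fold. Tmem163, a zinc transporter, read -0.95, -0.87, -1.02, -1.14 and -0.89 against 1.70, 4.03 and 4.56, and is at least 30.0-fold lower by the same bound. Cst9, of the cystatin family, read 0.60, 0.58, 0.09, 0.92 and 1.30 against 3.52, 4.45 and 5.54. Cacna2d2, an auxiliary subunit of calcium channels, read 0.22, 0.14, 0.48, 0.24 and 0.52 against 2.44, 3.65 and 4.19. Adamts8, a secreted metalloprotease, read 0.30, 0.15, 0.46, 0.38 and 1.17 against 1.54, 3.94 and 6.31. Other Cacna2d2 probes differed by less, at -0.94, -0.43 and -0.41, the last pair not well above background on any low array. For these 5 genes all 5 low sections lay below all others, and carbon black day 3 replicate 2 gave the highest value among the low arrays for all of them but Tmem163.

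Further genes with ranges apart were picked after their values were seen. They included Npr3, the natriuretic peptide clearance receptor, with an adjusted difference of -2.70 ± 0.18 (SE). Stard10, a lipid transfer protein, differed by -2.77 ± 0.13. Slc7a7, an amino acid transporter subunit, differed by -2.95 ± 0.17, and Olfm1, an olfactomedin, differed by -2.65 ± 0.32. Hamp, which encodes the iron hormone hepcidin, differed by -2.93 ± 0.29, at 0.47, -0.01, -0.04, -0.07 and 0.76 on the low arrays against 0.99 to 4.32 elsewhere. Cd207, better known from Langerhans cells, read 0.04, 0.03, -0.13, 0.02 and 0.96 against 1.84 to 4.46.

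Other genes known from atrial muscle were less uniform than the 7 markers. Of 20 listed, 17 were measured above the filter on dim probes; 7 were at least 2-fold lower, 1 was at least 2-fold higher, and the median difference was -0.47 beside 0.02 for all genes. Stard10 led, followed by Pam, the enzyme that amidates secreted peptides, at -1.71 ± 0.19, and Clic6, an intracellular chloride channel protein that was not well above background on any low array, at -0.16 to 0.07 against 0.07, 1.60 and 2.66 at the lowest, median and highest of the others, at least 2.55-fold lower. Kcnj3, a subunit of the acetylcholine-activated potassium channel, differed by -1.44 ± 0.25, while its partner Kcnj5 differed by -0.30. The transcription factors Nr2f2 and Tbx5, both part of the atrial programme, differed by -1.31 and -1.16. Kcna5, a potassium channel gene, was the 1 gene at least 2-fold higher, by 1.11, and 4 of the 17 lay above 0. Of 7 genes listed for the natriuretic peptide system and measured, 1 was at least 2-fold lower, Npr3 at -2.70, and the list median was -0.25. The score over that list was -0.70 to -0.37 on the low arrays and -0.34 to 0.36 on the others, so the ranges lay apart. Npr3, named above for its own ranges apart, is part of this score, and a score without it was not computed. Nppb, the B-type peptide, read 5.56, 5.21, 6.03 and 5.47 on the first 4 low arrays, inside the others' range of 4.51 to 6.97. It read 2.53 on carbon black day 3 replicate 2, below all others. Its adjusted difference was -0.78 ± 0.29, with -1.06 for a second probe and -1.34 ± 0.41 in Cy5 alone.

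Ventricular genes were higher on the low arrays or did not differ by 2-fold. Of 15 measured out of 16 listed, 6 were at least 2-fold higher and 0 at least 2-fold lower, with a median difference of 0.70. Irx4, the ventricular homeobox factor, read 3.40, 2.68, 3.62, 3.49 and 3.65 against -0.37, 1.58 and 3.99 at the lowest, median and highest of the others, an adjusted difference of 1.89 ± 0.51. Fhl2, a LIM protein of the sarcomere, read 5.69, 5.85, 5.67, 5.10 and 5.51 against 2.28, 3.97 and 5.24. Abcc9, the regulatory subunit of the muscle ATP-sensitive potassium channel, was higher by 1.80 ± 0.39, and Pln, the ventricular counterpart of sarcolipin, by 1.16 ± 0.28. Gja1, the connexin of working ventricular muscle, was higher by 0.77 ± 0.21 where Gja5 was lower. All 5 low arrays lay above the others' median for the genes named here, and 0 of the 15 had ranges apart.

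The ventricular values moved with the processing and with a further tissue. With a score over adipose genes as a further term, the ventricular median went from 0.70 to -0.09. The adipose score shares its arrays with the low score, so this fit divides one difference between overlapping terms. The median of the 7 atrial markers was -4.22 and then -4.05. Those markers chose the low arrays, so their values cannot be weighed against the ventricular ones. With normexp background correction the ventricular median was 0.31 with 3 of the 15 at least 2-fold higher, and with median centring 0.34 with 2. In Cy5 alone it was 1.77 with 10 of the 15 at least 2-fold higher.

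The 12 largest higher genes with a symbol were spread over several functions. Cavin4, a caveolar protein of muscle, read 4.54, 4.15, 4.44, 4.29 and 3.56 against 0.45, 2.43 and 3.86 at the lowest, median and highest of the others. Smyd2, a lysine methyltransferase of the sarcomere, read 1.29, 1.01, 1.06, 0.98 and 0.73 against -1.76, -0.84 and 0.55, the only one with ranges apart among the 12 largest higher genes that have a symbol. Acta1, skeletal alpha-actin, was higher by 1.78 ± 0.70 and Myot, a Z-disc protein, by 1.74 ± 0.40. Fbp2, the muscle fructose bisphosphatase, was higher by 1.69 ± 0.34. The others of the 12 were Cyfip2, Tesc, Scube2 and Tnfaip8, between 1.65 and 1.89. Contractile genes used by both chambers, such as Tnnt2 and Myh6, did not differ by 2-fold: of 16, 0 were 2-fold lower or higher, with a median of 0.01, although in Cy5 alone the median was 0.88 and 6 were at least 2-fold higher. Of 11 skeletal muscle genes, the list that holds Acta1, 2 were at least 2-fold lower and 1 higher, with a median of -0.25.

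Genes of mitochondrial energy supply lay mostly above 0 on the low arrays, by less than 2-fold for all but 3 of them. All 16 respiratory chain genes were above 0, with a median of 0.57 and 0 at 2-fold. The score over the list was 0.43, 0.56, 0.39, 0.49 and 0.54 on the low arrays and -0.68 to 0.35 on the others, so the ranges lay apart. Uqcrfs1, the Rieske protein of complex III, read 3.55, 3.46, 3.45, 3.40 and 3.48 against 2.01, 2.68 and 3.32. Of 18 fatty acid oxidation genes, 17 were above 0 and 3 were at least 2-fold higher, with a median of 0.81: Ucp3, a mitochondrial carrier, by 1.20 ± 0.38, and the acyl-CoA thioesterases Acot1 and Acot2 by 1.05 ± 0.33 and 1.03 ± 0.25. The fatty acid oxidation score was 0.35 to 0.79 on the low arrays and -0.85 to 0.83 on the others, so these ranges overlapped. With normexp 0 of the 18 were at least 2-fold higher, and with the adipose score in the fit the medians were 0.24 and 0.42.

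**Figure D3:**
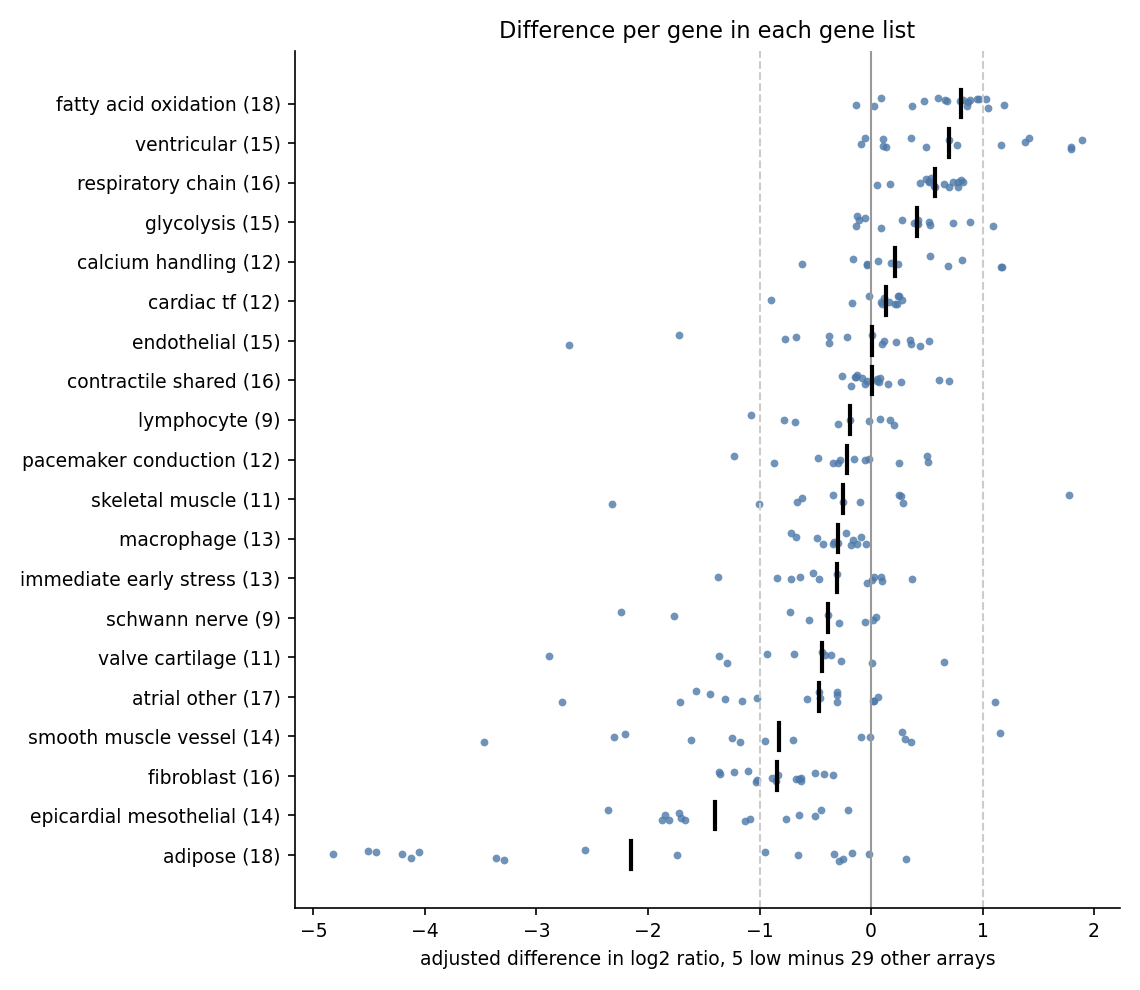
Adjusted difference in log2 ratio, low minus other arrays (horizontal axis), for each measured gene of the lists with 9 or more such genes; the black bar is the list median, the number in brackets the genes measured, and dashed lines mark 2-fold. Adipose, epicardial, fibroblast and smooth muscle lists lie to the left with medians of -2.15 to -0.83, and respiratory chain, ventricular and fatty acid oxidation lists to the right with medians of 0.57 to 0.81.

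By list median, transcripts of fat were the most depleted group after the atrial markers. Of 18 adipose genes measured out of 20, 10 were at least 2-fold lower and 0 higher, with a median of -2.15, and 0 had ranges apart. Fabp4, Plin4, Cidea and Dgat2 differed by -0.34, -0.25, -0.02 and 0.32. Among genes well above background on all arrays the adipose median was -0.34, with 3 of 11 at least 2-fold lower. The epicardial and mesothelial list then gave -1.66, with 9 of 13. Cidec, a lipid droplet protein, read -0.22, -0.03, -0.21, 0.34 and 3.98 on the low arrays against 0.07, 5.96 and 7.07 at the lowest, median and highest of the others. Adipoq, which encodes adiponectin, read 0.18, -0.04, 0.04, 0.21 and 4.04 against -0.23, 5.35 and 6.00. Ucp1, the uncoupling protein of brown fat, read 0.08, 0.02, -0.09, -0.10 and 5.28 against 0.05, 5.85 and 7.31. The adjusted difference was -4.51 for Cfd, -4.44 for Plin1 and -4.06 for Car3, of which Plin1 was well above background on 2 of the 5 low arrays, Car3 on 3 and Cfd on all 5, and the fat synthesis genes Fasn and Scd1 differed by -3.36 and -3.29. In each of these genes carbon black day 3 replicate 2 held more transcript than the first 4 low arrays.

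Fat transcripts also varied widely among the other arrays. The adipose score was -2.37, -2.39, -2.34, -2.19 and -0.57 on the low arrays, and -2.21 to 1.26 on the others with a median of 0.16. Carbon black day 3 replicate 2 lay within the others' range, and 1 of the others, carbon black day 28 replicate 3, had an adipose score of -2.21 with an atrial score of 0.10. With the adipose score as a further term, 290 genes were at least 2-fold lower and 34 higher, 261 of the 681 called genes kept their call, and 97 changed sign. Irx4 then differed by 0.10 and Cidec by -1.02. The score shares its arrays with the low score, so this fit divides one difference between overlapping terms, and the part of fat in the result was not tested further.

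Transcripts known from the outer layer of the heart were also lower on the low arrays. Of 14 epicardial and mesothelial genes, 9 were at least 2-fold lower and 14 were below 0, with a median of -1.40. Gpm6a, a membrane glycoprotein, read 1.86, 0.85, 0.96, 1.61 and 1.56 against 2.73, 3.53 and 5.38, and Upk1b, a uroplakin of mesothelium, read -0.11, 0.05, -0.05, 0.25 and 0.21 against 0.28, 1.96 and 3.48. These ranges lay apart, and carbon black day 3 replicate 2 was as low as the first 4 low arrays for both. The epicardial score was -0.93, -1.24, -1.28, -1.11 and -1.17 on the low arrays and -1.23 to 1.26 on the others. With the adipose score as a further term, 5 of the 14 were at least 2-fold lower, with a median of -0.72.

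Vessel wall, valve and matrix genes followed. Of 14 smooth muscle genes, 6 were at least 2-fold lower and 1 higher, with a median of -0.83. Cnn1, smooth muscle calponin, read 0.14, -0.53, -0.14, -0.59 and 2.60 against 0.28, 4.02 and 4.69. Rgs5, a pericyte gene, was the higher one, at 1.16. With the adipose score as a further term 2 of the 14 were at least 2-fold lower, with a median of -0.27. Of 16 fibroblast genes, 16 were below 0 and 6 at least 2-fold lower, among them Gsn at -1.37 ± 0.17 and Col3a1 at -1.23 ± 0.21, with a median of -0.85; with the adipose score these were 3 genes and -0.52. Of 11 valve and cartilage genes 3 were at least 2-fold lower, led by Comp, a cartilage matrix protein, at 0.30, 0.46, 0.82, 0.57 and 2.59 against 2.58, 3.88 and 4.75.

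**Figure D4:**
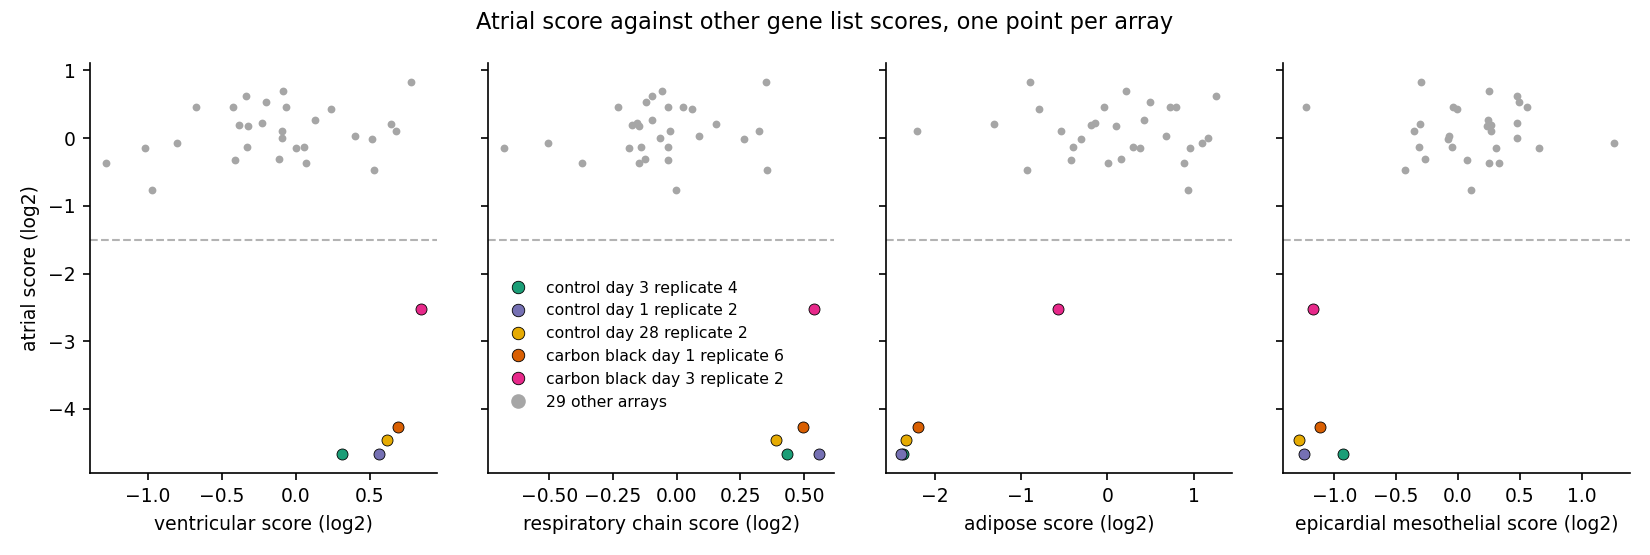
Atrial score (vertical axis, log2) against the score over ventricular, respiratory chain, adipose and epicardial genes (horizontal axes, log2), 1 point per array, with the threshold of -1.5 dashed. The 5 low arrays lie at 0.39 to 0.56 for the respiratory chain, to the right of all others, and carbon black day 3 replicate 2 lies apart from the other low arrays for adipose genes, at -0.57.

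Other cell types differed in single genes more than as lists. Endothelial genes had a median of 0.01, with Npr3 and Plvap, the latter a protein of fenestrated vessels, lower with ranges apart: Plvap read 1.40, 0.99, 1.42, 1.39 and 2.46 against 2.51, 3.30 and 3.97. With normexp background correction the endothelial median was -0.58. Of 9 nerve sheath genes, 2 were at least 2-fold lower and 2 lay above 0, with a median of -0.39. Among them Mbp, myelin basic protein, read -1.55, -1.06, -1.39, -1.44 and -1.33 against 0.01, 0.90 and 1.71. Myl1, a light chain of fast skeletal muscle that is also made in atria, read 2.52, 3.29, 4.14, 3.45 and 2.73 against 4.35, 5.39 and 6.51. Macrophage genes were below 0 in 13 of 13, with a median of -0.30 and 0 at 2-fold. Pacemaker and conduction genes had 1 of 12 at least 2-fold lower, Cntn2, at -1.23 ± 0.27 and well above background on 2 of the 5 low arrays; the list median was -0.22, and with Agilent's processed signals it was -1.07 with 6 of 12 at least 2-fold lower.

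Carbon black exposure was not used to choose the arrays, so it could be tested with and without them. With all 34 arrays, limma called 1520 genes (7.68%) at an adjusted p under 0.05 for carbon black minus vehicle averaged over the days, 835 higher and 685 lower. Without the 5 low arrays it called 1492 (7.54%), 830 higher and 662 lower, of which 1103 were among the 1520, all in the same direction. With low score as a covariate it called 2160 (10.9%), 1160 higher and 1000 lower, and all 1520 were among them. On single days no gene was called in any fit except 1 on day 1 with the covariate; at an unadjusted p under 0.05, limma had 1847, 3137 and 875 genes on days 1, 3 and 28 with all 34 arrays.

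Some genes called for exposure were among those that differed on the low arrays. With all 34 arrays the overlap was 10 genes, 0.658% of the 1520 called and 1.47% of the 681 that differed 2-fold, where the 681 make up 3.44% of the genes. In that fit the residual SD had a median of 0.801 for the lower and 0.738 for the higher genes, against 0.244 for all genes, so they were harder to call and the overlap is a description only. The genes named next were picked by smallest p in the exposure fits, not from this overlap. Dpt, for one, differed by -0.67 on the low arrays, which is less than 2-fold. Nt5e, the ecto-5′-nucleotidase, rose by 0.72 ± 0.12 (limma, adjusted p = 0.0074) with all arrays and by 0.75 ± 0.14 (limma, adjusted p = 0.011) without the low ones. Cox6b2, a cytochrome oxidase subunit, rose by 0.46 ± 0.07 and by 0.40 ± 0.08, with limma adjusted p = 0.0074 and 0.012. Dpt, the matrix protein dermatopontin and a fibroblast gene, fell by 0.45 ± 0.12 (limma, adjusted p = 0.028) with all arrays and by 0.58 ± 0.09 (limma, adjusted p = 0.010) without them. Socs1, an inhibitor of cytokine signalling, fell by 0.68 ± 0.15 and by 0.83 ± 0.14. Gpcpd1, a glycerophosphocholine phosphodiesterase, rose by 0.98 ± 0.21 and by 1.09 ± 0.20.

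With all arrays, 0 of the 7 markers passed the test for exposure, in limma at an adjusted p under 0.05 or at an unadjusted one. Myl7 came nearest, at 0.89 ± 0.44 (limma, adjusted p = 0.20). The other fits leave out or adjust for arrays chosen on these markers, so their marker values are given without a test. Myl7 was then 0.47 ± 0.21 without the low arrays and 0.76 ± 0.26 with the covariate. Dkk3 gave 0.12 ± 0.70 with all arrays and -0.21 ± 0.18 without the low ones. The log2 ratio of the Nppa probe used rose by 0.34 ± 0.10 (limma, adjusted p = 0.032) with all arrays and by 0.35 ± 0.11 (limma, adjusted p = 0.049) without the low ones. On the low arrays this ratio differed by 0.02 where the Cy5 signal differed by -4.12, so it need not follow the amount of Nppa transcript.

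**Figure D5:**
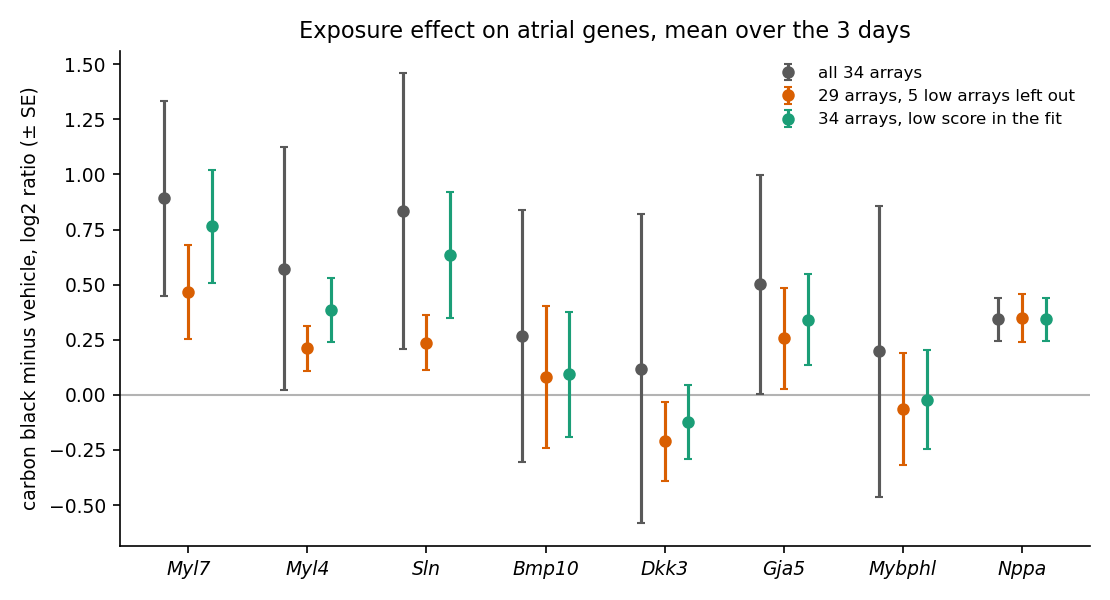
Carbon black minus vehicle in log2 ratio (vertical axis), averaged over the days, for the 7 markers and Nppa in 3 limma fits; points are estimates and bars 1 SE. The bars of the markers are shorter in the fits without the low arrays or with the covariate, which follows from the choice of arrays on these genes; Nppa lies at 0.34 with all arrays and 0.35 without the low ones.

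The exposure calls have limits that the low arrays do not set. Slide position 4 held 10 carbon black arrays and no control, and with position as a further term 0 genes were called in each of the 3 fits, with 2390, 1656 and 2922 at an unadjusted p under 0.05. With slide as a fixed block, limma called 120, 0 and 1007 genes, and from Agilent's processed signals 0, 0 and 1; without the low arrays the slide block left 3826 and the processed signals 2466 at an unadjusted p under 0.05. With all arrays, leaving out 1 array at a time moved the count by over 1.5 times for 9 arrays, none of them low. It was 2723 without control day 3 replicate 3. It was 783 without carbon black day 3 replicate 3, 831 without control day 28 replicate 4, 840 without control day 1 replicate 5 and 858 without carbon black day 28 replicate 3. It was 897 without control day 3 replicate 1, 898 without control day 28 replicate 5, 966 without carbon black day 1 replicate 5 and 979 without control day 3 replicate 6.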

How the data were processed

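The 34 arrays are Agilent mouse arrays with 2 colours, with 1 mouse per array and no dye swap. The authors deposited a table of log2 ratios of heart (Cy5) over Universal Mouse Reference RNA (Cy3), whose normalization is not given in the sources used here. Each column correlated at 0.996 to 0.998 with loess-normalised ratios made from that array's scanner file without background subtraction, which sets its direction and scale. The authors also deposited scanner intensity per spot for both channels, from Feature Extraction 10.1.1.1 per the file headers. Arrays had 42.8% to 66.6% of spots well above background in Cy5, and no spot of a gene was saturated in the channel used.

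Flagged spots were left out, spots of a probe were averaged, and the probe of highest mean Cy5 signal stood for a gene. Probes were named through RefSeq transcripts; 23374 of 41174 matched a symbol. Genes entered the fits when a share of 0.5 or more of any group's arrays had Cy5 well above background and at most 3 arrays lacked a value; 19791 did. Differences between low and other arrays came from limma 3.58.1 (R 4.3.3) with a mean per group and a term for low score, on the deposited log2 ratios. Exposure was tested in limma with Benjamini-Hochberg adjustment over all genes. Single-channel values were median signals less local background, scaled to a common 75th percentile, floored at 10 units. A list score is the mean of its genes' log2 ratios minus their medians over arrays. "At least" folds set the mean of the other arrays against the dimmest signal well above background, from channel values after quantile scaling of the average signal, and are open to dye bias, since dyes were not swapped. The fits were also run on simulated data, made by shuffling residuals over the arrays and adding known shifts. Shuffling breaks any link between exposure and slide or position, so these runs cannot speak to that limit.

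Named genes were the markers, the 15 lower and 12 higher named genes of largest difference, up to 4 genes of each list with partner genes, and the 6 of smallest p in each exposure fit. The arrays, the markers and the gene lists were chosen with earlier results of these data known. The labels name 1 mouse per sample, so replicates are animals, and replicate numbers follow the order of deposit.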

Additional observations from a re-analysis of the deposited data

Results flagged for a closer look

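Within each group, a score or marker was examined for a sample whose gap to its nearest neighbour took up most of the group's range. Of 66 such checks 9 stood out, 5 on the low arrays and 4 on the others. The 95% critical value used flags about 1 group in 20 by chance. That rate does not apply to the 5, and over this many checks it gives several flags such as the 4. The atrial score stood out on all 5 low arrays, which the score itself chose: -4.67 in control day 3 replicate 4, -4.66 in control day 1 replicate 2, -4.45 in control day 28 replicate 2, -4.27 in carbon black day 1 replicate 6 and -2.53 in carbon black day 3 replicate 2.

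Among the other arrays alone, 4 single marker values lay far from their group. Myl7 was high in control day 28 replicate 1, at a log2 ratio of 6.69 with the next at 5.60. Sln was high in carbon black day 1 replicate 1, at 6.94 with the next at 6.00. Gja5 was high in carbon black day 28 replicate 2, at 6.45 with the next at 5.61. Mybphl was low in carbon black day 28 replicate 1, at 1.97 with the next at 5.25.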

How the results depend on the processing

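The 5 arrays were the same with normexp background correction, Agilent processed signals, the mean over all probes of a gene, and, in alternatives chosen after seeing the data, Cy5 alone, a threshold of -1 and each marker left out in turn; a threshold of -3 kept 4. The Fisher test of arm then gave p = 0.604. The count of genes at least 2-fold lower was 1400 with processed signals, and, in alternatives added later, 1115 in Cy5 alone and 290 with the adipose score. The higher count was 45 with normexp, 410 with processed signals, 64 with median centring, 640 in Cy5 alone and 34 with the adipose score. Leaving out 1 low array at a time gave 506 to 574 lower and 145 to 179 higher genes. With the adipose score Ucp1 turned to 0.094, Hp to 0.042, Fasn to 0.62, Scd1 to 0.41, Acta1 to -0.081, Asph to -0.17, Mup1 to 2.18 and Ms4a1 to 0.91. With processed signals Tcf21 turned to 0.048 and Lyve1 to 0.17. The cause was not tested.

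Exposure calls with all arrays were 386 with normexp, 0 with processed signals, 120 with slide as a fixed block and 0 with array position. Without the low arrays they were 0 with processed signals, 0 with the slide block and 0 with position. With the low score covariate they were 682 with normexp, 1 with processed signals, 1007 with the slide block and 0 with position. Leaving out 1 array at a time gave 783 to 2723 with all arrays and 655 to 2958 without the low ones. In the latter, the counts that moved by over 1.5 times were 2958 without control day 3 replicate 3, 655 without control day 28 replicate 4, 668 without control day 3 replicate 1, 700 without carbon black day 3 replicate 3, 709 without carbon black day 28 replicate 3, 764 without control day 1 replicate 5, 796 without carbon black day 1 replicate 5, 876 without carbon black day 3 replicate 5 and 883 without control day 28 replicate 5. The marker effects that changed sign, none of them called in limma, were as follows. With array position and all arrays, Myl4 was -0.32, Bmp10 -0.37, Dkk3 -0.77 and Mybphl -0.64. Without the low arrays Bmp10 was -0.034 with normexp, -0.49 with the slide block and -0.044 with slide as a random block, Mybphl 0.26 with processed signals and 0.32 with position, Gja5 -0.26 with the slide block, and Dkk3 0.27 with position. With the covariate Bmp10 was -0.0060 with normexp, -0.45 with the slide block and -0.022 with the random block, Gja5 -0.22 with the slide block, Dkk3 0.19 with processed signals and 0.25 with position, and Mybphl 0.60 and 0.29 with the same settings. No paired analysis was possible because replicate numbers follow only the order of deposit; slide was the block instead, since several slides hold both arms. Signal over background limits Bmp10, Fgf12, Tmem163 and Clic6 to bounds; in all, 20 genes were above it on all other arrays and on no low array, 12 of them at least 2-fold lower, and Adipoq and Ucp1 were above it on 1 of the 5 low arrays, Cidec and Plin1 on 2.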
